A study of Mus musculus with 8 samples.

Results

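Cytokines of the IL-12, IL-18, interferon and IL-10 families reach CD8+ T cells through surface receptors built from paired chains, and the 10 genes described here encode chains of those receptors: *Il12rb1* and *Il12rb2* (IL-12), *Il18r1* and *Il18rap* (IL-18), *Ifngr1* and *Ifngr2* (IFN-γ), *Ifnar1* and *Ifnar2* (type I interferon), *Il27ra* (IL-27) and *Il10ra* (IL-10). They were taken by gene symbol, and all 10 were found among the 22520 genes and assembled transcripts of the deposited table. The cells were splenic CD8+ T cells kept in culture under persistent stimulation with anti-CD3 and anti-CD28 antibodies and IL-2 for 6 days. From day 3, the cells of 4 libraries received 40 µM DADA (diisopropylamine dichloroacetate, an inhibitor of pyruvate dehydrogenase kinases) and those of the other 4 an equal volume of its solvent DMSO, so stimulation and IL-2 were shared by both groups. The study describes the spleen donors as wild-type mice without naming their strain (its methods list male C57BL/6J mice of 6 to 8 weeks among others), and whether each library came from its own animal is not stated, so p-values measure the spread between these libraries only. The labels enter the words control and model under genotype, although no genetic change is described for these cells.

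IL-12 holds T cells in a cytotoxic, IFN-γ-producing state through the kinases TYK2 and JAK2 and the factor STAT4, and IL-18 acts beside it through the adaptor MyD88. Type I interferon signals through JAK1 and TYK2 to a complex that holds STAT2 and IRF9, IFN-γ signals through JAK1 and JAK2, and IL-10 signals largely through STAT3. In each of these receptors a ligand-binding or signalling chain works with a partner, and some partners serve several cytokines: IL-12Rβ1 also belongs to the IL-23 receptor, IL-10Rβ to several IL-10 family receptors, and gp130 (*Il6st*) to the IL-27 and IL-6 receptors.

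The genes lie partly in clusters in the RefSeq annotation of GRCm38.p6. *Ifnar2*, *Il10rb*, *Ifnar1* and *Ifngr2* follow each other on chromosome 16, *Il1rl1*, *Il18r1* and *Il18rap* follow each other on chromosome 1, and *Il12rb2* lies between *Serbp1* and *Il23r* on chromosome 6. STAT dimers bind the gamma-activated sequence (GAS), searched here as TTCNNNGAA, and the interferon factor ISGF3 binds the interferon-stimulated response element (ISRE), searched as a pair of GAAA units with any 2 bases between them, on both strands. The RefSeq promoter table (250 bases before to 50 after the start) held 7 of the 10 genes in 9 windows, without entries for *Il12rb1*, *Il27ra* and *Il10ra*. A GAS match lay in 4 windows of 4 genes (*Il12rb2*, *Il18r1*, *Ifnar1* and *Ifnar2*), against 8.3% of all 32851 windows, and an ISRE match in 0 windows, against 3.44% of all windows. The windows of *Il18r1* overlapped in part, and only 1 of them held a match. The match of *Ifnar1* begins 5 bases before the start and runs past it. With so few windows, the difference from all windows was not tested. Upstream sequence is shown, 5′ to 3′ with any GAS match in capitals, for the gene with the largest rise among the 7 (*Il12rb2*), the gene with the largest fall (*Il18rap*, no match) and a gene with a match whose transcript did not pass the test (*Ifnar2*). A match is a run of letters and not a measured binding site.

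The *Il12rb2* stretch is chr6:67376294-67376438 of GRCm38.p6 on the minus strand, from 250 to 106 bases before the start, with its match beginning 123 bases before it. The bases between this stretch and the start lie within the RefSeq span of the gene and are not printed. The start used thus lies inside that span.
Il12rb2: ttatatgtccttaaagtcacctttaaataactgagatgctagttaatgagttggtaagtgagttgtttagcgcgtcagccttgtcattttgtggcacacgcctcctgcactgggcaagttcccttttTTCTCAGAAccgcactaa
The *Ifnar2* stretch is chr16:91372533-91372782 on the plus strand, the 250 bases before the start, with its match beginning 214 bases before it.
Ifnar2: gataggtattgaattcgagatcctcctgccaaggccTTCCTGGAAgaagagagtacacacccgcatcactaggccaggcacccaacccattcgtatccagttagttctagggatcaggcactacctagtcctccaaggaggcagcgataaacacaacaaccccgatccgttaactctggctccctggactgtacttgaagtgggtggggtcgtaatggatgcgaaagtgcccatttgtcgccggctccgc
The *Il18rap* stretch is chr1:40515112-40515361 on the plus strand, the 250 bases before the start.
Il18rap: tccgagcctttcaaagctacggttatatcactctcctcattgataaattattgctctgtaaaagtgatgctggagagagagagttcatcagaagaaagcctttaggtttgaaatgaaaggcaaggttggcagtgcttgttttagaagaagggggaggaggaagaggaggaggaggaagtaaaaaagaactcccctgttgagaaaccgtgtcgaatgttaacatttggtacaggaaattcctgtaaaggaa

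Values are FPKM, in which fragment numbers are divided by transcript length and by the library's mapped fragments, so that levels of different genes can be set side by side. The depth of the libraries, estimated from the steps between low values, was 13750000 to 16250000 mapped fragments with DMSO and 15230000 to 18990000 with DADA. Libraries of a group correlated at Pearson's r of 0.993 to 0.995 over genes and libraries of different groups at 0.958 to 0.961, and no library stood apart. All 8 genes listed as CD8 T cell markers were present, at 63.2 to 291 FPKM. Of these, *Cd8a* and *Cd8b1* encode CD8 itself, and *Cd3d*, *Cd3e*, *Cd3g*, *Cd247*, *Cd2* and *Cd5* are shared with other T cells. The summed level of the 8 was 984 to 1006 FPKM with DMSO and 1204 to 1239 FPKM with DADA. With DADA, 7 markers were higher and 1 (*Cd5*) lower. Of markers of other cells, B cell genes summed to 2.59 to 3.54 FPKM with DMSO and 2.36 to 3.09 FPKM with DADA, of which *Cd79b* alone reached 1 FPKM. Myeloid markers summed to at most 0.188 FPKM with *Csf1r* and *Adgre1* at 0, CD4 T cell markers to at most 0.513, NK cell markers to at most 0.346, dendritic cell markers to at most 0.168 and erythroid markers to at most 0.169 FPKM with *Hbb-bs* at 0. NK cell markers (DMSO at most 0.0959 FPKM, DADA 0.144 to 0.346 FPKM) and dendritic cell markers (DMSO at most 0.0496 FPKM, DADA 0.109 to 0.168 FPKM) were higher in every DADA library, and their part in the receptor values was not tested. In bulk RNA, fewer cells expressing a gene and less RNA per cell cannot be told apart.

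Whether DADA altered the transcripts of these receptors was asked with limma over all 10666 genes that reached 1 FPKM in at least 4 libraries, on the log2(FPKM + 1) scale. All 10 receptor genes passed this filter, and each was above 1 FPKM in all 8 libraries. With DADA, 4 rose (*Il10ra*, *Il12rb2*, *Ifngr1* and *Il12rb1*), 3 fell (*Il18rap*, *Ifnar1* and *Il27ra*), and 3 did not pass the test (*Il18r1*, *Ifnar2* and *Ifngr2*). That is 7 of 10 called at an adjusted p under 0.05, beside 66.2% of all genes tested (30.9% higher and 35.3% lower), so being called does not set these genes apart from the rest of the table. The DMSO and DADA values of the same 7 genes did not overlap, beside 60.6% of all genes tested (28.4% with DADA above and 32.2% with DADA below). The median log2 fold change of the 10 was −0.06, and that of all genes tested was −0.02.

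**Figure D1:**
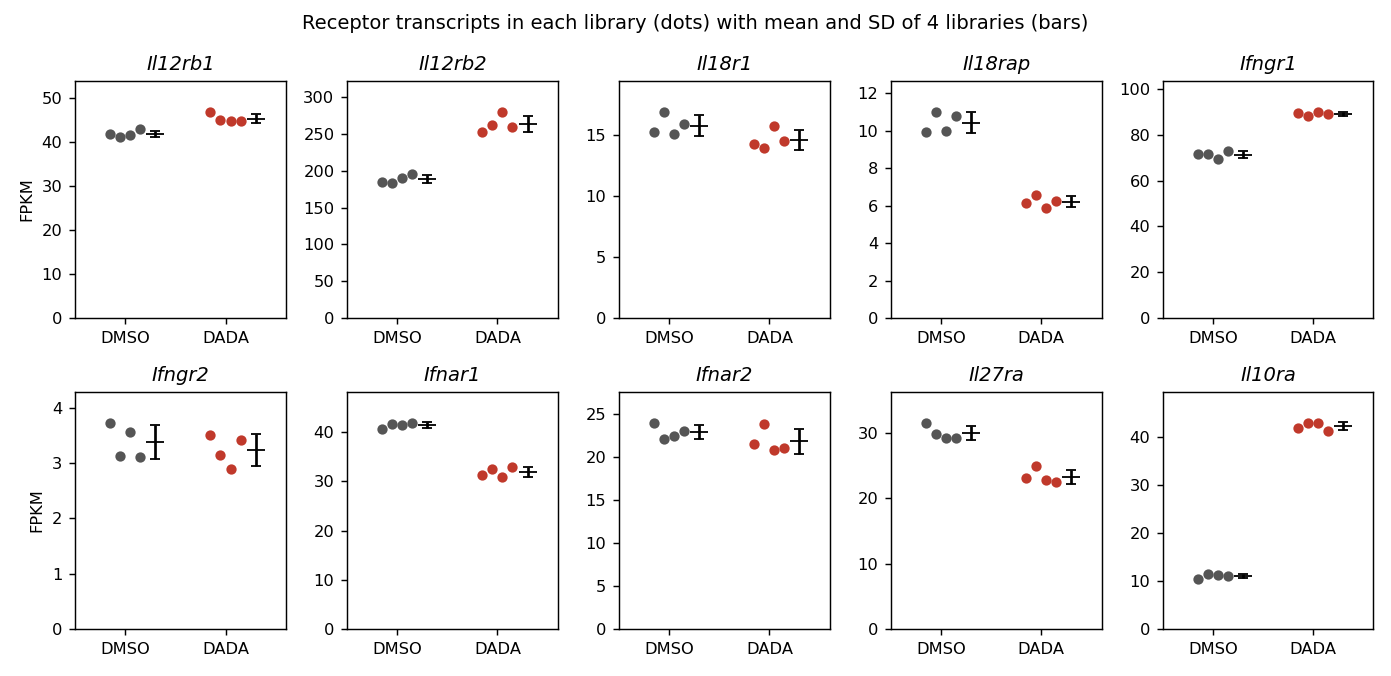
FPKM (y axis, starting at 0, with its own scale in each panel) of the 10 receptor genes in each library, with DMSO in grey, DADA in red and the black bar giving mean and SD of 4 libraries. *Il10ra* goes from 11.1 to 42.3 FPKM, *Il12rb2* and *Ifngr1* rise clear of DMSO, *Il18rap*, *Ifnar1* and *Il27ra* fall clear of it, and the dots of *Il18r1*, *Ifngr2* and *Ifnar2* overlap.

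*Il10ra* (ENSMUSG00000032089), which encodes the ligand-binding chain of the IL-10 receptor, changed most. Its values were 10.5, 11.6, 11.2 and 11.1 FPKM in DMSO libraries 1 to 4 and 42.0, 43.0, 43.0 and 41.3 FPKM in DADA libraries 1 to 4. The lowest DADA library was thus far above the highest DMSO library, and the spread within either group was small. The mean was 11.1 ± 0.448 FPKM with DMSO and 42.3 ± 0.845 FPKM with DADA (SD, n = 4 each), 3.82-fold higher. The log2 fold change was 1.84 (SE 0.0335, limma adjusted p = 5.20e-11), which placed it at number 104 among the 3296 genes that rose. By level, *Il10ra* stood at percentile 45.1 of the genes tested with DMSO and 82.8 with DADA. Its partner *Il10rb* was at 26.0, 24.2, 22.9 and 24.3 FPKM with DMSO and 24.5, 25.0, 26.3 and 22.6 FPKM with DADA, with overlapping groups. On the log2 scale *Il10rb* differed by 0.01 (limma adjusted p = 0.841).

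Among the genes whose log2(FPKM + 1) followed *Il10ra* most closely over the 8 libraries were *Vegfa* and *Ier3*, which encode a vascular growth factor and an immediate early response protein. Their Pearson r was 0.9998 and 0.9996, and they rose by 0.89 and 2.47 on the log2 scale. The 8 points fall into 2 groups by treatment, and 434 of the 8125 genes averaging at least 5 FPKM had an r of at least 0.99, so many genes shared this pattern.

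The IL-12 receptor chains both rose, by unequal amounts. *Il12rb2* (ENSMUSG00000018341), the signalling chain that binds STAT4, was at 185, 183, 189.6 and 196 FPKM with DMSO and at 253, 262, 279.8 and 259.6 FPKM with DADA. Every DADA library was above every DMSO library, and *Il12rb2* was the highest of the 10 genes in both groups. The mean went from 188.6 ± 5.62 to 263 ± 11.5 FPKM (SD, n = 4 each), a 1.40-fold rise, with a log2 fold change of 0.48 (SE 0.0338, limma adjusted p = 8.19e-07). *Il12rb1* (ENSMUSG00000000791), the chain shared with the IL-23 receptor, was at 41.8, 41.2, 41.6 and 42.9 FPKM with DMSO and at 46.9, 45.0, 44.8 and 44.9 FPKM with DADA. These groups did not overlap either, but the step was small, at 0.11 on the log2 scale (SE 0.0252, limma adjusted p = 0.00258). The IL-23-specific chain *Il23r* did not pass the filter, with at most 0.163 FPKM in any library.

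The *Il12rb2* level carries a limit of annotation. In GENCODE M21, 1519 of its 3794 exonic bases (40.0%) lie on the opposite strand of a long last exon found in 1 of 16 transcripts of *Serbp1*, which encodes an mRNA-binding protein. *Serbp1* was at 529.8 to 566 FPKM with DMSO and 472 to 498 FPKM with DADA, so its groups did not overlap either (log2 difference −0.19, limma adjusted p = 1.30e-04). The study's methods name a Multi-Stranded mRNA-Seq kit, and the labels name a different kit. Whether the authors' counting used strand is not given in the sources used here. Reads of these bases therefore cannot be assigned to either gene, and the part of *Serbp1* in the *Il12rb2* value was not tested. *Ifnar2* shares 315 of 3329 exonic bases (9.46%) with the same-strand gene model *Gm21970*, which was listed at 0 in every library.

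Of the IL-18 receptor chains, only *Il18rap* passed the test over all 8 libraries. *Il18rap* (ENSMUSG00000026068), the signalling chain, was at 9.93, 11.0, 9.96 and 10.8 FPKM with DMSO and at 6.15, 6.58, 5.89 and 6.25 FPKM with DADA. All DADA values lay below all DMSO values. The mean fell from 10.4 ± 0.557 to 6.22 ± 0.284 FPKM (SD, n = 4 each), to 0.597 of the DMSO level, with a log2 fold change of −0.66 (SE 0.0477, limma adjusted p = 9.72e-07). It was the largest fall of the 10 and number 223 among the 3768 genes that fell. Its level went from percentile 43.2 of the genes tested to 28.0. *Il18r1* (ENSMUSG00000026070), the ligand-binding chain, was at 15.2, 16.9, 15.1 and 15.9 FPKM with DMSO and at 14.2, 13.9, 15.7 and 14.5 FPKM with DADA. DADA library 3 lay within the DMSO range, so the groups overlapped. Its log2 fold change was −0.11 (95% interval −0.21 to 1.85e-05), which did not pass the test (limma adjusted p = 0.0723, exact two-sided permutation p = 0.0857), and without DADA library 3 it did (−0.14, adjusted p = 0.0219).

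The genes closest to *Il18rap* over the 8 libraries were *Esd*, *Exosc9* and *Paics*, which encode an esterase, a subunit of the RNA exosome and an enzyme of purine synthesis. Their Pearson r was 0.9988, 0.9969 and 0.9967, with log2 fold changes of −0.78, −0.41 and −0.44, and 72 of 8125 genes reached an r of 0.99. These points too fall into 2 groups by treatment.

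Among other relatives of the IL-18 receptor, *Sigirr*, an inhibitory member of the IL-1 receptor family, was at 36.0 to 38.7 FPKM with DMSO and 50.8 to 54.6 FPKM with DADA, and rose by 0.50 on the log2 scale (limma adjusted p = 3.97e-07). *Il1rap*, the partner chain of the IL-1 and IL-33 receptors, was at 2.25 to 2.60 FPKM with DMSO and 3.16 to 3.31 FPKM with DADA, and rose by 0.29 (limma adjusted p = 6.80e-04). The IL-33 receptor *Il1rl1*, the neighbour of *Il18r1*, was near 1 FPKM in both groups with overlapping values and a difference of 0.09 on the log2 scale (limma adjusted p = 0.292).

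In each of the 2 interferon receptors 1 chain passed the test, upward for IFN-γ and downward for type I interferon. *Ifngr1* (ENSMUSG00000020009), the ligand-binding chain of the IFN-γ receptor, was at 71.8, 71.4, 69.3 and 72.9 FPKM with DMSO and at 89.3, 88.2, 89.9 and 88.8 FPKM with DADA. The groups stood well apart with little spread inside either. The mean went from 71.3 ± 1.51 to 89.0 ± 0.716 FPKM (SD, n = 4 each), 1.25-fold higher, with a log2 fold change of 0.32 (SE 0.0220, limma adjusted p = 7.45e-07). *Ifngr2* (ENSMUSG00000022965), the partner that brings JAK2, had the lowest level of the 10 in both groups, at 3.73, 3.13, 3.55 and 3.12 FPKM with DMSO and 3.51, 3.14, 2.89 and 3.41 FPKM with DADA. Its groups overlapped, with a log2 fold change of −0.05 (95% interval −0.20 to 0.10, limma adjusted p = 0.549), and it ranged from −0.080 to −0.0082 with libraries left out in turn. At a few FPKM this gene has the widest interval of the 10.

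*Ifnar1* (ENSMUSG00000022967), the chain of the type I interferon receptor that binds TYK2, was at 40.6, 41.7, 41.5 and 42.0 FPKM with DMSO and at 31.2, 32.6, 30.9 and 32.9 FPKM with DADA. The highest DADA value lay below the lowest DMSO value. The mean fell from 41.4 ± 0.607 to 31.9 ± 0.993 FPKM (SD, n = 4 each), to 0.771 of the DMSO level, with a log2 fold change of −0.37 (SE 0.0280, limma adjusted p = 1.49e-06). *Ifnar2* (ENSMUSG00000022971), the high-affinity ligand-binding chain, was at 24.0, 22.1, 22.5 and 23.0 FPKM with DMSO and at 21.6, 23.9, 20.8 and 21.0 FPKM with DADA. DADA library 2 lay inside the DMSO range while the other 3 lay below it. The log2 fold change was −0.07 (95% interval −0.17 to 0.03, limma adjusted p = 0.215), and without DADA library 2 it was −0.11 (adjusted p = 0.0239). The lambda interferon chain *Ifnlr1* did not pass the filter, with at most 0.0614 FPKM.

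*Il27ra* (ENSMUSG00000005465), the ligand-specific chain of the IL-27 receptor, was at 31.6, 29.9, 29.3 and 29.3 FPKM with DMSO and at 23.2, 24.9, 22.8 and 22.5 FPKM with DADA. The groups did not overlap. The mean fell from 30.0 ± 1.11 to 23.3 ± 1.09 FPKM (SD, n = 4 each), to 0.777 of the DMSO level, with a log2 fold change of −0.35 (SE 0.0389, limma adjusted p = 2.37e-05). Its partner *Il6st* was at 4.38 to 4.58 FPKM with DMSO and at 4.65 to 5.34 FPKM with DADA. These ranges did not overlap, yet the difference of 0.11 on the log2 scale did not pass the test (limma adjusted p = 0.0619).

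**Figure D2:**
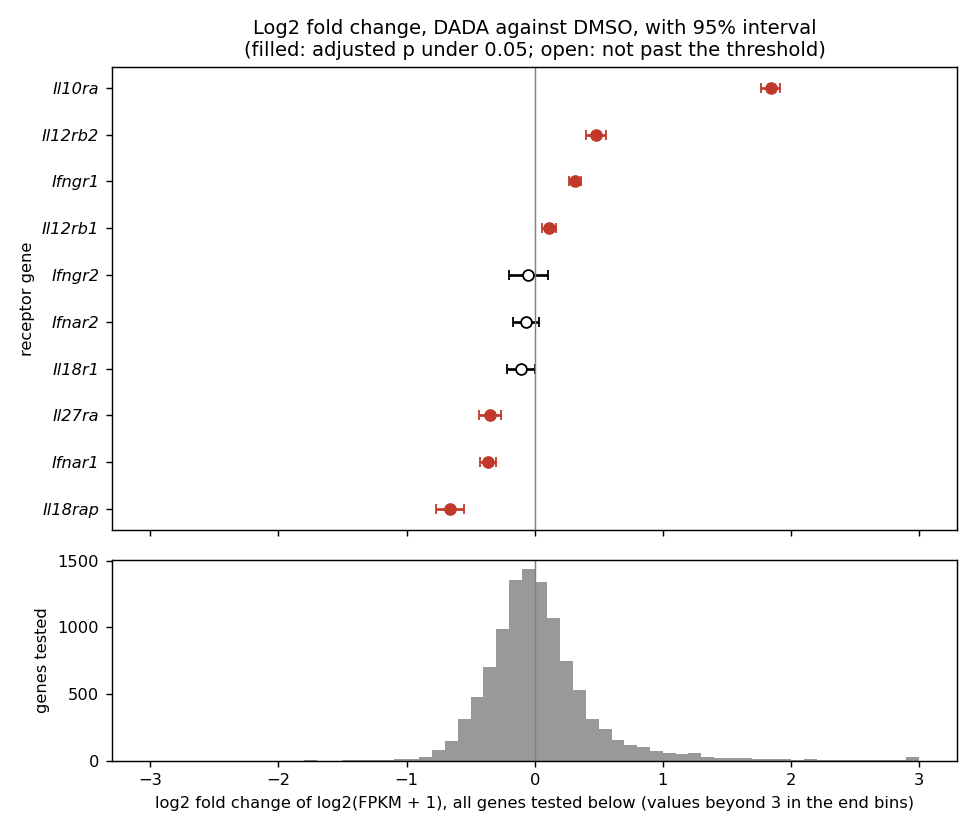
Log2 fold change of log2(FPKM + 1), DADA against DMSO (x axis), for each receptor gene with its 95% interval above, and the number of genes tested in each 0.1-wide bin of the same axis below. *Il10ra* at 1.84 lies far right of the bulk of all genes, the other 6 called genes lie between −0.66 and 0.48, and the intervals of *Il18r1*, *Ifnar2* and *Ifngr2* reach 0.

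In order of level, the DMSO libraries ran from *Il12rb2* through *Ifngr1*, *Il12rb1*, *Ifnar1*, *Il27ra*, *Ifnar2*, *Il18r1*, *Il10ra* and *Il18rap* to *Ifngr2*, and the neighbours *Il12rb1* and *Ifnar1*, and *Il10ra* and *Il18rap*, overlapped in FPKM. With DADA, *Il10ra* moved to the fourth place, between *Il12rb1* and *Ifnar1*, and the rest kept their order. In that group the neighbours *Il27ra* and *Ifnar2* overlapped, and the other neighbours stood apart.

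Since FPKM are scaled to length, the ratio of chains of 1 receptor was taken within each library, for 6 pairs. All 6 ratios differed between the groups without overlap (exact two-sided permutation p = 0.0286 for each, adjusted p = 0.0286 over 6 pairs, the smallest p that 4 against 4 libraries allow). Every pair held a chain whose own values did not overlap between the groups, as was so for 60.6% of all genes tested. The share of other gene pairs with ratios that stand apart was not computed, so the count does not set these pairs apart. *Il12rb2* to *Il12rb1* was 4.43, 4.45, 4.56 and 4.56 with DMSO and 5.39, 5.81, 6.24 and 5.78 with DADA. *Il18r1* to *Il18rap* was 1.53, 1.53, 1.51 and 1.48 with DMSO and 2.32, 2.11, 2.67 and 2.32 with DADA. Both ratios were almost constant among the DMSO libraries and spread more among the DADA libraries, all of which were higher. *Ifngr1* to *Ifngr2* was 21.2 ± 2.16 with DMSO and 27.7 ± 2.58 with DADA (SD, n = 4 each). *Ifnar1* to *Ifnar2* fell from 1.81 ± 0.0858 to 1.47 ± 0.0843 (SD, n = 4 each). In these 2 receptors the numerator passed the test by itself and the groups of the denominator overlapped. *Il27ra* to *Il6st* fell from 6.71 ± 0.130 to 4.76 ± 0.482 (SD, n = 4 each). *Il10ra* to *Il10rb* was 0.402, 0.478, 0.488 and 0.458 with DMSO and 1.72, 1.72, 1.64 and 1.83 with DADA. *Il10ra* was therefore the less abundant chain transcript in all DMSO libraries and the more abundant in all DADA libraries. The ratio of *Il12rb2* carries the overlap with *Serbp1* given above.

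**Figure D3:**
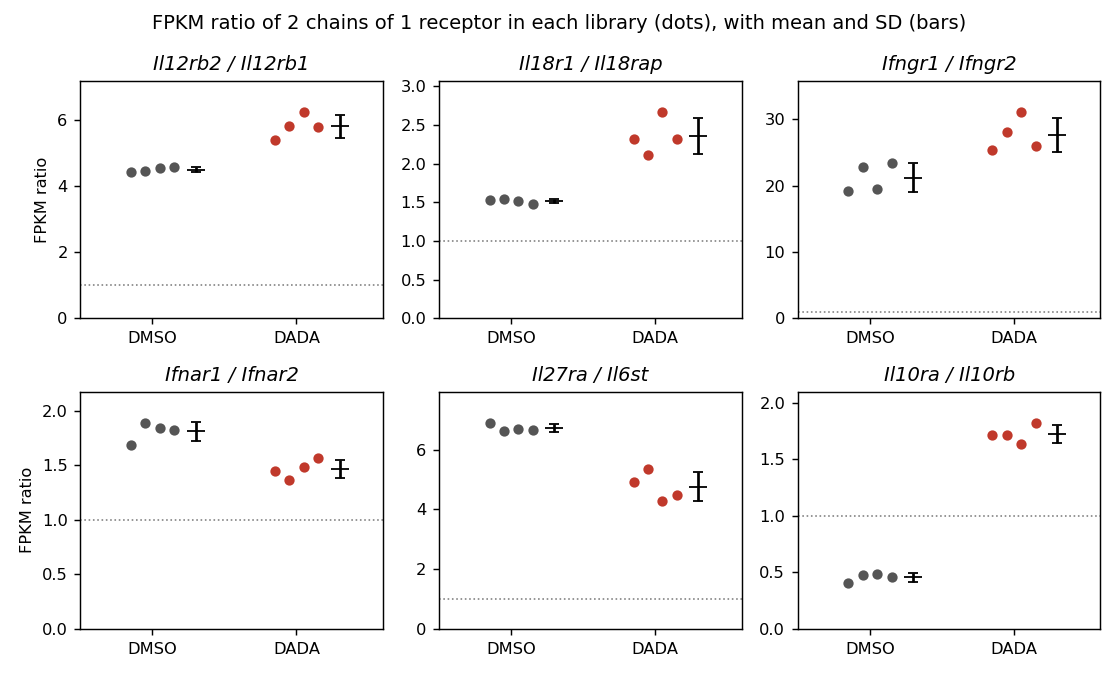
FPKM ratio of the chains of 1 receptor (y axis, starting at 0, with its own scale in each panel) in each library, DMSO in grey and DADA in red, with mean and SD of 4 libraries in black and a dotted line at 1. *Il10ra* to *Il10rb* crosses the line, from 0.456 to 1.72, and in all 6 panels the groups do not overlap. The share of other gene pairs that do so was not computed.

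Genes that act around these receptors were followed as 8 lists, chosen with earlier results of these data known. Their members were counted beside the same background of 66.2% called. A gene that passed the filter through the DADA libraries alone could only be higher there, so such genes are named and left out of the counts and medians below. Without the genes that passed in 1 group alone, 65.5% of 10427 genes were called (3106 higher and 3720 lower), with a median log2 fold change of −0.02. Of 14 ligand genes, 3 were counted, of which 2 rose and 1 fell (median 0.14), and *Il10* and *Il18* passed it through the DADA libraries alone. *Il10* was at 0.07, 0.39, 0.17 and 0.37 FPKM with DMSO and at 6.60, 8.19, 8.18 and 7.95 FPKM with DADA, values given without a test. *Ifng*, chosen after its values were seen, was at 376 to 420 FPKM with DMSO and 638 to 659 FPKM with DADA, and rose by 0.68 on the log2 scale (limma adjusted p = 6.39e-08). The other rise, that of *Ebi3*, a subunit of IL-27, was 0.14 (limma adjusted p = 0.0421) with overlapping groups, and it was not called in 7 of the 8 analyses with 1 library left out (all but that without DADA library 4). *Il23a*, the IL-23-specific subunit, was at 133 to 137 FPKM with DMSO and 52.2 to 58.1 FPKM with DADA, and fell by 1.26 on the log2 scale (limma adjusted p = 7.20e-10). The IL-12 subunit *Il12b* was listed at 0 in all 8 libraries and *Il12a* in all but 1 DADA library. Chosen after their values were seen, *Ifnb1*, *Ifna2* and *Ifna4* were listed at 0 in all 4 DMSO libraries and at 0.133 to 0.536, 0.310 to 0.867 and 0.421 to 1.10 FPKM in the DADA libraries. *Ifna1* reached at most 0.231 FPKM, *Ifne* and *Ifnk* were listed at 0 throughout, and *Il27* was listed at 0 in all but 1 DADA library.

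Of the 7 partner chains, given above, 5 passed the filter, 2 rose, 0 fell and 3 did not pass the test (median 0.11). Of the 8 kinases and STATs, all of which were tested, 6 rose, 1 fell and 1 did not pass (median 0.44). *Stat2*, a part of the interferon factor ISGF3, was at 11.7 to 12.1 FPKM with DMSO and 31.9 to 33.2 FPKM with DADA, a difference on the log2 scale of 1.38. *Jak1*, the kinase used by the interferon, IL-10 and IL-27 receptors, was at 63.5 to 65.4 FPKM with DMSO and 54.4 to 60.4 FPKM with DADA, and fell by 0.16 on the log2 scale (limma adjusted p = 0.00178). Chosen after its values were seen, *Stat3*, the factor most used by IL-10, was at 85.4 to 88.6 FPKM with DMSO and 185 to 196 FPKM with DADA, a difference on the log2 scale of 1.12. *Stat4*, the factor used by IL-12, was the gene that did not pass, at 53.2 to 60.3 FPKM with DMSO and 57.4 to 60.4 FPKM with DADA. The groups overlapped for *Stat4* and stood apart for the other 3.

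Of the 8 IL-18 adaptor genes, all tested, 5 rose, 2 fell and 1 did not pass (median 0.14). *Irak2*, a kinase of the MyD88 complex, was at 8.90 to 9.69 FPKM with DMSO and 11.4 to 12.3 FPKM with DADA, a difference on the log2 scale of 0.34. *Map3k7*, which encodes the kinase TAK1, was at 29.7 to 30.6 FPKM with DMSO and 22.8 to 24.4 FPKM with DADA, a difference on the log2 scale of −0.35. The other fall, that of *Irak1* (−0.15, limma adjusted p = 0.0408), was close to the threshold, and it was not called in 6 of the 8 analyses with 1 library left out (all but those without DADA library 1 and without DMSO library 4).

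Of the 9 inhibitors of these receptors, 8 were counted, of which 5 rose, 0 fell and 3 did not pass (median 0.18). *Usp18*, which restrains the type I interferon receptor, was at 0.92, 0.49, 0.51 and 0.63 FPKM with DMSO and at 29.9, 31.8, 30.2 and 30.0 FPKM with DADA. It passed the filter through the DADA libraries alone, so no test is given.

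Of the 16 interferon targets, 11 were counted, of which 9 rose and 2 fell (median 0.82), and *Ifit1*, *Ifit3*, *Oas1a* and *Oasl1* passed the filter through the DADA libraries alone. *Isg15*, a ubiquitin-like modifier, was at 2.73 to 3.45 FPKM with DMSO and 136 to 154 FPKM with DADA, a difference on the log2 scale of 5.16. *Irf1*, an interferon-induced transcription factor, was at 31.6 to 33.8 FPKM with DMSO and 28.7 to 29.6 FPKM with DADA, and fell by 0.18 on the log2 scale (limma adjusted p = 2.96e-04). The other fall was that of *Psmb8*, which was no longer called under quantile normalization.

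Of the 7 IL-12 and IL-18 targets, 6 were tested and all 6 rose (median 0.77). *Prf1*, the pore-forming protein perforin, was at 23.8 to 26.1 FPKM with DMSO and 158 to 168 FPKM with DADA, a difference on the log2 scale of 2.66. Of the 6 IL-10 and IL-27 targets, 3 were counted and all 3 rose (median 1.22), with *Prdm1* and *Il10* passing the filter through the DADA libraries alone. *Ifng*, *Il10*, *Socs3* and *Tbx21* each stand on 2 of the lists, so these counts are not independent of each other.

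**Figure D4:**
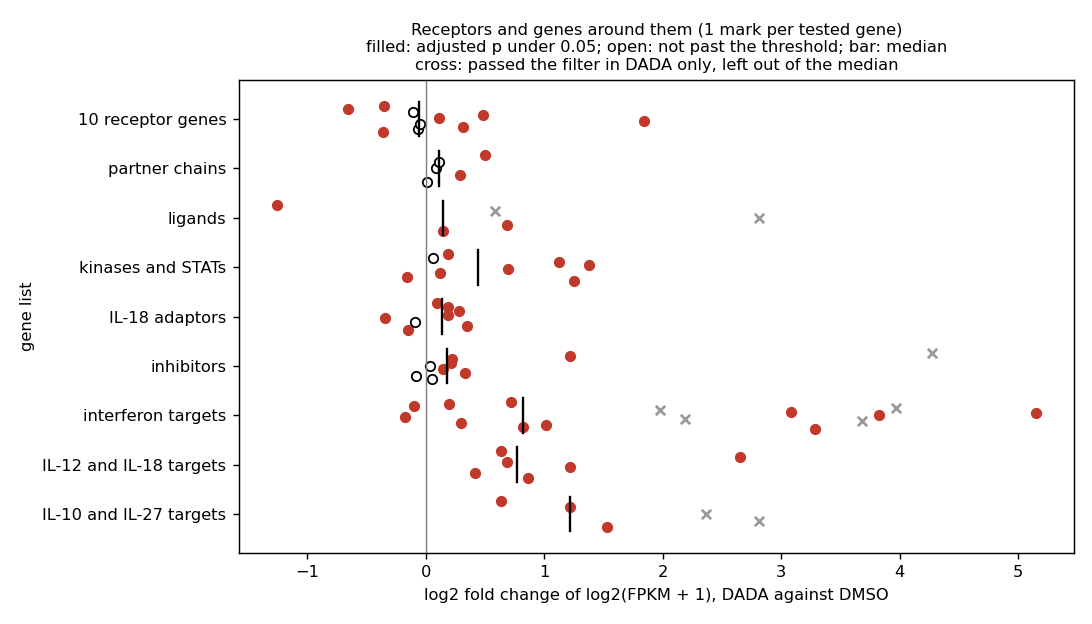
Log2 fold change of log2(FPKM + 1), DADA against DMSO (x axis), of every tested gene (circles, filled where called) in the 10 receptor genes and each of the 8 lists (y axis), with grey crosses for genes that passed the filter through DADA alone and a black bar at the median of the others. The receptors centre on −0.06 with 3 called falls and 4 called rises, and the interferon targets centre on 0.82 with *Isg15* at 5.16 farthest right.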

How the data were processed

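Bulk RNA-seq of 8 libraries of mouse splenic CD8+ T cells was analysed, 4 with DMSO and 4 with 40 µM DADA, grouped by title and treatment protocol. The values are FPKM as the authors deposited them, made from paired reads of 150 bp. The submitters' processing notes name CASAVA 1.8.2, FastQC 0.11.9, HISAT2 2.0.5, StringTie 1.3.3, Picard 1.41 and SAMtools 0.1.18 and the builds GRCh38 and GRCm39, without their roles. Whether counting used strand is not given in the sources used here, and the labels and the study's methods name different library kits. An FPKM table holds no counts, so depth was estimated from the lowest values of 4431 genes with 1 transcript in GENCODE M21. Of these values, 33.3% to 41.0% lay within 0.1 of a whole fragment number. Chance gives 20.0% at a depth fixed beforehand. Here the depth was chosen for closeness to whole numbers, so 20.0% understates chance. Since that depth is only approximate, count models were not fitted.

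The 10666 genes with at least 1 FPKM in at least 4 libraries were tested on log2(FPKM + 1) with limma 3.58.1 in R 4.3.3 (DADA as the single term, trended eBayes, Benjamini-Hochberg adjustment over all genes tested, call at an adjusted p under 0.05). Ratios of chains, as log2 of (FPKM + 1) over (FPKM + 1), were compared by an exact two-sided permutation test over 70 assignments. The members and gene lists were chosen with earlier results of these data known. Named were all 10 receptors, every partner chain, from each list the called gene averaging 1 FPKM or more with the largest rise and that with the largest fall, and the 3 genes most alike to the receptor with the largest rise and to that with the largest fall. Not every gene so selected is reported here. *Serbp1* was named for its overlap with *Il12rb2*. *Il12a*, *Il12b*, *Irak1*, *Psmb8*, *Ifnb1*, *Ifna1*, *Ifna2*, *Ifna4*, *Ifne*, *Ifnk*, *Il27*, *Ifng*, *Ebi3*, *Stat3*, *Stat4* and the genes listed for passing the filter in 1 group were chosen after their values were seen. Promoter sequences were from RefSeq (GRCm38.p6). Other settings tried were a pseudocount of 0.1, no filter, a mean of at least 5 FPKM, quantile normalization, the same total per library, eBayes without the trend, median-ratio scaling, a replicate block, no assembled transcripts and each library left out.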

Additional observations from a re-analysis of the deposited data

Results flagged for a closer look

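In 3 of the 78 gene-by-group sets tested, a single library was separated from the remaining 3 by a gap that took up most of the set's range (Dixon's criterion), and chance, at 1 in 20, would give about 3.9. Among the receptors this was *Il12rb1* with DADA, where library 1 was at 46.9 FPKM and the other 3 at 44.8 to 45.0 FPKM (gap over range 0.896), and without that library its log2 fold change was 0.10. *Il10* with DADA was at 6.60 FPKM in library 1 and 7.95 to 8.19 FPKM in the other 3 (0.852). *Usp18* with DADA was at 31.8 FPKM in library 2 and 29.9 to 30.2 FPKM in the other 3 (0.861).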

How the results depend on the processing

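Over the alternatives run, the 7 called receptors stayed called in the same direction. Their log2 fold changes ranged from 1.82 to 1.92 for *Il10ra*, 0.45 to 0.51 for *Il12rb2*, 0.30 to 0.37 for *Ifngr1*, 0.10 to 0.15 for *Il12rb1*, −0.74 to −0.63 for *Il18rap*, −0.38 to −0.34 for *Ifnar1* and −0.38 to −0.32 for *Il27ra*. With libraries left out in turn, *Il18r1* ranged from −0.14 to −0.075 and *Ifnar2* from −0.11 to −0.046, and each passed the test in 1 case (without DADA library 3 and without DADA library 2). *Il10rb* ranged from −0.019 to 0.050, turning negative without DADA library 3 and without DMSO library 3 (−0.016). *Il1rl1* turned to −0.17 under quantile normalization. Neither was called. *Il6st* passed the test with eBayes without the trend (0.11), at the same total per library (0.14) and without DADA library 2 (0.14), and was 0.013 under quantile normalization and 0.082 without DADA library 3. *Ifngr2* ranged from −0.16 (quantile normalization) to −0.0082 (without DADA library 3) and was never called. At a mean of at least 5 FPKM, which tests fewer genes, 1 partner chain, 2 ligands and 3 IL-10 and IL-27 targets rose, and with no filter 7 ligands rose, against 4 as tested; these counts include genes that passed the filter through DADA alone. The ligand rises were 3 under quantile normalization and 3 to 4 with libraries left out. The falls among IL-18 adaptors were 1 with eBayes without the trend, with no filter and at the same total per library, and 1 to 2 with libraries left out. Quantile normalization gave 1 fall among the inhibitors and 1 among the interferon targets. The cause of these changes was not tested. Calls over all genes numbered 7064, from 6700 to 7121 under the other settings, except 5741 of 8190 genes at a mean of at least 5 FPKM and 7868 of 16167 with no filter. Of the called genes 46.7% were higher with DADA, 51.6% at the same total per library, 50.9% with no filter and 42.2% under quantile normalization.

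Libraries of equal replicate number did not deviate together (correlation of deviations −0.12 to 0.095 for equal numbers, 0 of 4 over 0.1, and 0 of 4 DMSO libraries correlated best with their own number). Whether libraries of equal number came from the same animal cannot be told from this. With the replicate block 6995 genes were called and the call of no receptor changed. The 6 ratios were run under only 10 of these alternatives, and they kept their direction in each. With 3 libraries against 4, or with sign flips over 4 pairs, they cannot pass the threshold and are values only. Depth limits the low genes most, *Ifngr2* among the receptors and *Il10* and the type I interferon genes among the ligands.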
